A study of Mus musculus with 6 samples.

Results

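Ankrd1, Ankrd23, Csrp3, Fhl1, Fhl2, Tcap, Smpx, Rcan1 and Myoz2 were followed here as the stretch-responsive signalling genes of the cardiac Z-disc and I-band. They were taken by symbol, not by a threshold on measured values, and all 9 were found among the 15159 genes of the deposited count table. All 9 were also among the 14758 genes with enough counts to be tested, so none was lost to the filter on low counts. Polyadenylated RNA was sequenced from cultured heart cells of C57BL/6 x 129S4/SvJae mouse embryos at embryonic day 18.5. The cells carried an inducible histone H3 transgene that encoded either the wild-type protein (H3WT, 3 libraries) or a mutant with methionine at lysine 9 (H3K9M, 3 libraries), a genotype labelled as suppressed for methylation there. Both groups received doxycycline at 2 µg/ml on the first days of culture and grew for 4 days on soft silicone (PDMS) of 13 kPa, so the comparison holds the substrate and the drug constant and no stiff substrate or stretched culture stands beside it. Neither the promoter of the transgene nor the number of embryos behind a library is stated in the labels. P-values therefore measure the spread between these libraries, which may be technical.

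The Z-disc anchors the actin filaments of neighbouring sarcomeres, and the I-band is the stretch beside it in which the spring segments of titin lie. Both are textbook sites of mechanosensing in heart muscle. Proteins docked there, such as the ankyrin repeat proteins on titin, the muscle LIM protein and the titin cap, can also move to the nucleus or restrain signalling enzymes, and several of their genes are classic responders to load. Calcineurin, a calcium-dependent phosphatase, is tied to the same place through calsarcin (Myoz2) and is inhibited by the product of Rcan1, itself a target of the calcineurin-activated factor NFAT.

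The libraries held between 55550379 and 67994773 counts. A member had at least 1515 counts in any library. Levels are CPM, counts scaled to a fixed library size after TMM normalisation. The 10 cardiomyocyte markers (Myh6, Tnnt2, Tnni3 and others) were all present and summed to 26809 to 33024 CPM in H3WT and 28497 to 31808 CPM in H3K9M. Markers of other cells were present too, since the 10 fibroblast markers summed to 10928 to 18618 CPM over the 6 libraries. Of 16 skeletal muscle markers, 9 are not among the genes counted here, including the defining regulators Myod1, Myf5, Myog and Myf6. Among the marker lists, the calls were Ddr2 of the fibroblast list (0.66 ± 0.10 on the log2 scale, adjusted p = 0.0210 in edgeR) and Actg2 (higher, adjusted p = 0.0373) and Smtn (-0.39 ± 0.08, 0.0443) of the 8 smooth muscle genes, whose summed levels were 5389 to 7258 CPM in H3WT and 5036 to 5551 CPM in H3K9M. Each of these calls was lost without H3WT replicate 2 (edgeR adjusted p from 0.0973 to 0.184). Ddr2 was also lost without any 1 of the H3K9M libraries (0.0514 to 0.0773). Actg2 was also lost without H3WT replicate 1 (0.0542) or H3K9M replicate 2 or 3 (0.112 and 0.0976). Smtn was also lost without H3WT replicate 3 (0.0608) or any 1 H3K9M library (0.120 to 0.154). Scaling to cardiomyocyte markers lost Ddr2 (0.0714) and Smtn (0.126). No gene of the cardiomyocyte, skeletal, endothelial, macrophage or immediate early lists was called, although 1, 4, 5, 0 and 2 of them had an unadjusted p under 0.05 in edgeR. DESeq2 called 1, 2, 2, 0 and 1 of them, and limma-voom called 0. Markers of several other cell types had mostly negative fold changes, beside the positive median of the members. The endothelial sum was 197, 197 and 262 CPM in H3WT and 116, 183 and 134 CPM in H3K9M, without overlap, and 9 of its 10 genes had negative values (median log2 fold change -0.60), led by Egfl7 (-0.70 ± 0.18), Tek (-0.996 ± 0.30) and Cdh5 (-0.59 ± 0.21). Of the fibroblast markers 7 of 10 were negative (median -0.56), among them Fbln1 (-0.80 ± 0.30), Tcf21 (-0.88 ± 0.35) and Lum (-1.002 ± 0.49), opposite to Ddr2. Without H3WT replicate 1 the values of Fbln1, Tcf21 and Lum were -0.35, -0.42 and -0.29. All 10 macrophage markers were negative (median -0.37). Their sums in H3K9M, 225 to 296 CPM, lay inside the H3WT range of 157 to 573 CPM. All 18 immediate early genes were positive (median 0.44), as were 8 of the 10 cardiomyocyte markers (median 0.07). The part of these differences in the values of the members was not tested. In such bulk samples, fewer cells of a type and less RNA per cell cannot be told apart. The titles of replicate 2 in both groups lack the word Soft that the other titles carry, although the culture protocol is the same for all. H3K9M library 1 stood apart in the 18 immediate early genes, which summed to 2027 CPM there and to between 869 and 1017 CPM in the other 5 libraries.

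None of the 9 genes passed between H3K9M and H3WT in edgeR's quasi-likelihood test with Benjamini-Hochberg adjustment over all tested genes, in which 0 rose and 0 fell at the 0.05 threshold. Over all genes 1.99% passed, 0.935% higher and 1.05% lower in H3K9M. Their log2 fold changes (H3K9M over H3WT) lay between -0.22 for Fhl2 and 0.50 for Fhl1, with 7 positive and 2 negative. The median was 0.17, beside -0.0024 over all genes tested. At an unadjusted p under 0.05 edgeR passed 2 of the 9, Fhl1 and Ankrd23, a threshold that 16.4% of all genes met. DESeq2 called 1 member, Fhl1, while calling 6.8% of its genes, and limma-voom called 0 of the 9 and 1.5% of all genes. Without H3K9M replicate 1 the members' median was 0.03, with 6 positive, 3 negative and 0 at an unadjusted p under 0.05. In the edgeR fit with every library, no member's 95% interval reached a log2 fold change of 1 in either direction. The highest bound was 0.95 for Csrp3 and the lowest -0.47 for Fhl2. Changes of 2-fold are thus outside the intervals of that fit, while changes of up to the bounds remain inside them. With 1 library left out this held only without H3K9M replicate 1, where the highest bound was 0.93 for Fhl1. For Csrp3 the upper bound was 1.02 without H3WT replicate 1 and 1.15 without H3K9M replicate 2. It was 1.08 for Ankrd23 without H3K9M replicate 3. For Fhl1 it was 1.02 without H3WT replicate 2 and 1.04 without H3WT replicate 3. The standard error of Csrp3 was 0.35 in DESeq2, against 0.24 in edgeR.

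**Figure D1:**
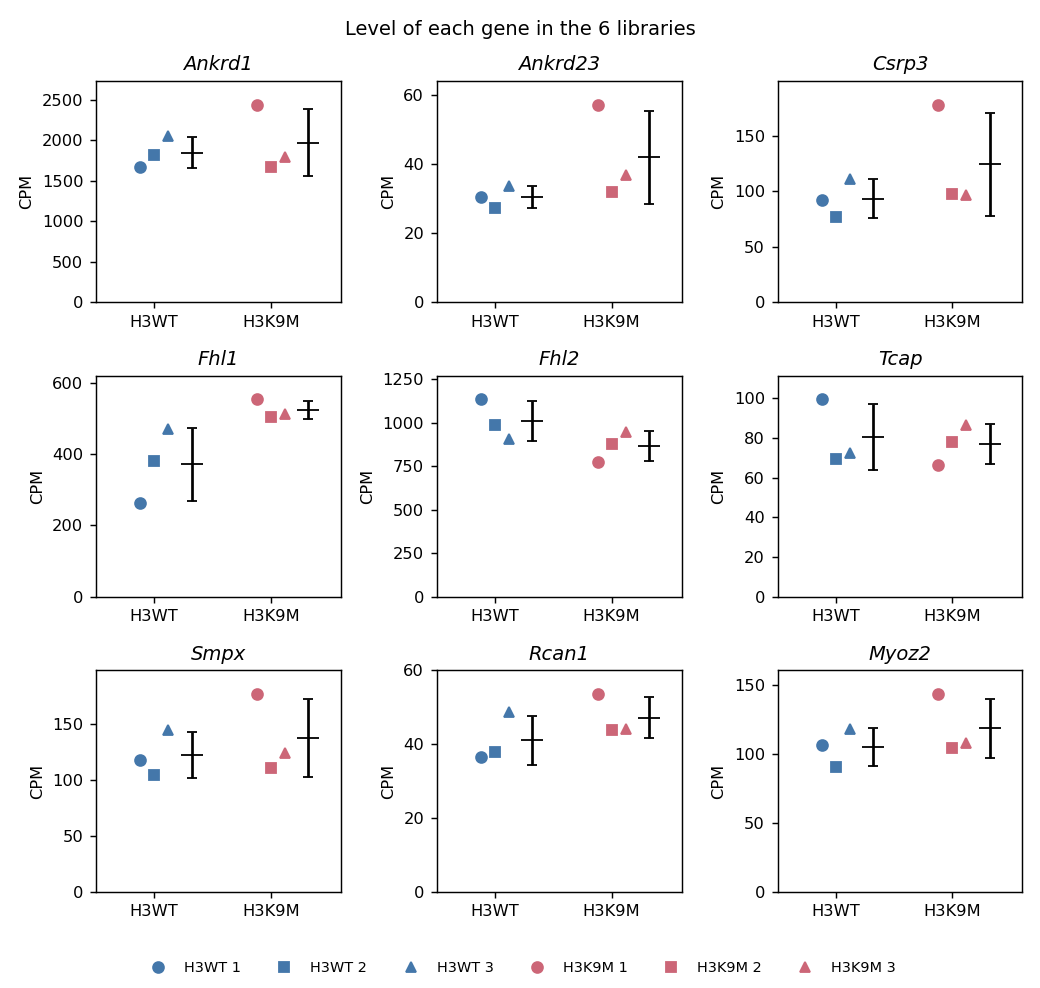
CPM of each of the 9 genes (y axis, starting at 0) in the 3 H3WT libraries (blue) and the 3 H3K9M libraries (red), with the mean and SD of each group in black and replicate numbers as symbols. In 7 panels the highest H3K9M point is library 1, at 57.2 CPM for Ankrd23 against 31.9 and 36.7 CPM in the other H3K9M libraries. Fhl1 is the single gene whose groups do not overlap.

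The ankyrin repeat genes come first. Ankrd1 encodes CARP, a cofactor that binds the N2A segment of titin and is among the most load-sensitive transcripts of the heart, and it lies on chromosome 19 (chr19:36111961-36120099, minus strand, mm10 coordinates from GENCODE M21). It stood at 1673, 1814 and 2051 CPM in H3WT libraries 1 to 3 and at 2436, 1669 and 1795 CPM in H3K9M libraries 1 to 3. The H3K9M group held both the highest and the lowest value, so the groups overlapped fully. The means were 1846 ± 191 CPM (SD, n = 3) and 1967 ± 411 CPM. The log2 fold change was 0.09 ± 0.15 (SE, 95% interval -0.25 to 0.43), with an adjusted p of 0.818 in edgeR. Without H3K9M replicate 1 the value was -0.09.

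Its relative Ankrd23, also called DARP, encodes another titin-binding ankyrin repeat protein of muscle and lies on chromosome 1 (chr1:36530188-36536883, minus strand). H3WT gave 30.4, 27.3 and 33.6 CPM and H3K9M gave 57.2, 31.9 and 36.7 CPM. A single H3K9M library stood far above the other 5, and the lowest H3K9M value fell inside the H3WT range. The log2 fold change was 0.46 ± 0.20 (95% interval 0.0025 to 0.92, edgeR adjusted p = 0.303) and was 0.17 without H3K9M replicate 1. In GENCODE M21 78.2% of the exon bases of Ankrd23 also belong to Gm42417, a gene model on the same strand, so its counts could depend on how shared reads were assigned. Ankrd1 had 60.8 ± 5.73 counts for each count of Ankrd23 in H3WT and 47.9 ± 4.97 in H3K9M (n = 3 each). The 3 H3WT ratios were 55.0, 66.5 and 61.0 and the 3 H3K9M ratios 42.6, 52.4 and 48.9, without overlap. This within-library ratio needs no normalisation, and the exact two-sided permutation test gave p = 0.1, the smallest that 3 against 3 libraries allow, and an adjusted p of 0.1 over the 2 ratios tested.

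The LIM domain genes come next, and their products carry paired zinc fingers for protein binding and shuttle between sarcomere and nucleus. Csrp3 encodes the muscle LIM protein, a Z-disc protein whose loss is a known cause of dilated cardiomyopathy (chr7:48830398-48848033, minus strand). Its levels were 92.1, 77.0 and 112 CPM in H3WT and 178, 98.1 and 97.0 CPM in H3K9M. Both remaining H3K9M libraries lay within the H3WT range. The log2 fold change was 0.41 ± 0.24 (95% interval -0.13 to 0.95, edgeR adjusted p = 0.443), the largest standard error of the 9 genes, and it was 0.06 without H3K9M replicate 1.

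Fhl1, an X-linked gene, encodes a four-and-a-half LIM protein that binds the N2B segment of titin and takes part in hypertrophic signalling through MAP kinase (chrX:56731787-56793346, plus strand). It was measured at 264, 380.1 and 469 CPM in H3WT and at 553, 505 and 512 CPM in H3K9M. All 3 H3K9M libraries lay above all 3 H3WT libraries, and the H3WT libraries were far more scattered, with a coefficient of variation of 27.7% against 4.97%. Groups that did not overlap were found for 22.6% of all tested genes, and for 11.3% with H3K9M higher, so 1 of 9 members is not above the background. The means were 371 ± 103 and 523 ± 26.0 CPM (SD, n = 3). EdgeR estimated 0.50 ± 0.18 on the log2 scale (95% interval 0.09 to 0.90) with an unadjusted p of 0.0228 and an adjusted p of 0.218. DESeq2 gave 0.50 ± 0.17 with an adjusted p of 0.0469. The low H3WT library, replicate 1, decided much of the size, since the value was 0.30 without it and 0.70 without H3WT replicate 3. That library also had the lowest level of the X-linked transcript Xist, 71.3 CPM against 136 to 376 CPM in the other 5, and the highest level of the Y-linked gene Ddx3y, 73.4 CPM against 29.0 to 55.6 CPM. It also had the highest sum of macrophage markers, 573 CPM against 157 to 302 CPM. The part of these in the value of Fhl1 was not tested.

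Fhl2 encodes the paralogous protein DRAL, an adaptor on titin that is abundant in heart and is also made by fibroblasts and smooth muscle (chr1:43123074-43196984, minus strand). In H3WT it stood at 1135, 987 and 909 CPM and in H3K9M at 777, 880.0 and 945 CPM. The direction was the opposite of that of Fhl1, with 1 H3K9M library inside the H3WT range and 2 below it. The log2 fold change was -0.22 ± 0.11 (95% interval -0.47 to 0.03, edgeR adjusted p = 0.379). The ratio of Fhl1 to Fhl2 counts within a library was 0.233, 0.385 and 0.516 in H3WT and 0.711, 0.574 and 0.542 in H3K9M. All 3 H3K9M ratios were the higher ones, with means of 0.378 ± 0.142 and 0.609 ± 0.0902 (n = 3), a log2 difference of 0.75 (exact two-sided permutation p = 0.1, the smallest possible here, and adjusted p = 0.1 over 2 ratios). Left-out libraries moved that difference to between 0.44, without H3WT replicate 1, and 1.01, without H3WT replicate 3. Such a ratio does not tell which of the genes differs.

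Tcap and Smpx encode small structural partners. Tcap, or telethonin, caps the end of titin in the Z-disc (chr11:98383811-98384953, plus strand) and was at 99.3, 69.4 and 72.2 CPM in H3WT and 66.4, 77.8 and 86.3 CPM in H3K9M. The groups were intermingled, with a log2 fold change of -0.06 ± 0.15 (95% interval -0.40 to 0.28, edgeR adjusted p = 0.879). Its sign turned to 0.12 without H3WT replicate 1 and to 0.03 without H3K9M replicate 1. Smpx, or chisel, is an X-linked gene for a small striated muscle protein of the costamere (chrX:157698910-157752591, plus strand). Its values were 118, 104 and 145 CPM in H3WT and 177, 111 and 124 CPM in H3K9M, overlapping, and the estimate was 0.17 ± 0.18 on the log2 scale (95% interval -0.25 to 0.58, edgeR adjusted p = 0.714). Without H3K9M replicate 1 it was -0.06.

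The calcineurin-linked members are Myoz2 and Rcan1. Myoz2 encodes calsarcin, which tethers calcineurin to alpha-actinin at the Z-disc (chr3:123006206-123035015, minus strand). It measured 106, 90.8 and 118 CPM in H3WT and 144, 104 and 108 CPM in H3K9M, which on the log2 scale is 0.17 ± 0.14 (95% interval -0.15 to 0.49, edgeR adjusted p = 0.594). Without H3K9M replicate 1 the estimate was 0.01. Rcan1, the inhibitor and feedback target of calcineurin (chr16:92391953-92470867, minus strand), measured 36.6, 37.8 and 48.6 CPM in H3WT and 53.6, 43.9 and 44.0 CPM in H3K9M. All H3K9M values lay above H3WT libraries 1 and 2, and H3WT library 3 lay among them. The log2 fold change was 0.20 ± 0.13 (95% interval -0.10 to 0.50, edgeR adjusted p = 0.499). Gene counts do not separate the long Rcan1 transcript from the short one, which starts at an internal promoter and is the NFAT-driven form.

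**Figure D2:**
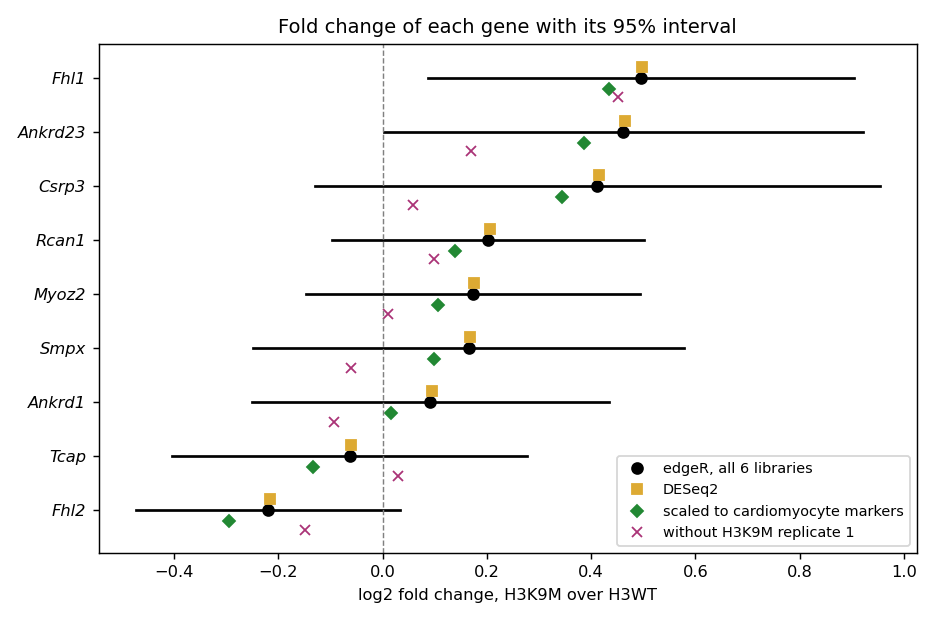
Log2 fold change of H3K9M over H3WT (x axis) for each gene, with the edgeR estimate (black dot) and its 95% interval (line), beside DESeq2 (yellow), values scaled to cardiomyocyte markers (green) and the fit without H3K9M replicate 1 (purple crosses). The intervals of Fhl1 and Ankrd23 start just above 0, and the crosses of Ankrd1, Smpx and Tcap lie on the other side of 0 from their dots.

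The clearest structure in these genes lay between libraries of the same group. H3WT library 3 was the highest of its group for 7 genes (Ankrd1, Ankrd23, Csrp3, Fhl1, Smpx, Rcan1 and Myoz2), and H3K9M library 1 was the highest of its group for the same 7. Over all tested genes these libraries were highest in 35.4% and 36.1%. The pattern was not particular to the members. Summed Z-disc and I-band partners were also highest of their groups there, at 9421 and 10340 CPM. So were the load and fetal programme (10771 and 12800 CPM) and the YAP and TEAD targets (6022 and 6864 CPM). The sums of the paralogs and of the calcineurin and NFAT genes were instead highest in H3WT library 2 among the H3WT libraries. Fhl2 and Tcap ran the other way in both groups. They were highest in H3WT library 1 and H3K9M library 3, and both were lowest in H3K9M library 1. Relative to the mean of the other H3K9M libraries, library 1 had 1.83 times the level of Csrp3, 1.67 times that of Ankrd23, 1.51 times that of Smpx, 1.41 times that of Ankrd1, 1.35 times that of Myoz2, 1.22 times that of Rcan1 and 1.09 times that of Fhl1. For Fhl2 and Tcap the same quotient was 0.852 and 0.809. In H3WT library 3 the quotient against the other H3WT libraries ran from 1.16 for Ankrd23 to 1.46 for Fhl1, and it was 0.857 for Fhl2 and 0.856 for Tcap.

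The sums of the fibroblast and macrophage markers moved with these library differences, which the other marker sums did only in part. The fibroblast markers summed to 11778 CPM in H3WT library 3 and 10928 CPM in H3K9M library 1, the lowest of all, and to 18618 CPM in H3WT library 1 and 17329 CPM in H3K9M library 3, the highest. Fhl2 followed the order of that sum in all 3 libraries of each group, and Tcap followed it in H3K9M and at its highest library in H3WT. The macrophage sum had the same order within each group, at 573, 302 and 157 CPM in H3WT libraries 1 to 3. It was 225.4, 295.2 and 296.3 CPM in H3K9M libraries 1 to 3. The cardiomyocyte markers reached 33024 CPM in H3WT library 3 against 27925 and 26809 CPM in the other H3WT libraries, and 31510.3 CPM in H3K9M library 1 against 28497 and 31808 CPM, so that they were highest in H3K9M library 3. The endothelial sum was highest in H3WT library 3 and lowest in H3K9M library 1. When values were scaled to the 10 cardiomyocyte markers in place of the whole library, H3K9M library 1 was still the highest of its group for 6 genes, all of the 7 but Fhl1, and H3WT library 3 for 3. On that scale Csrp3 was at 166 in H3K9M library 1 against 102 and 93.4 in the other H3K9M libraries. The part of the cardiomyocyte, fibroblast and macrophage markers, and of the immediate early genes that were high in H3K9M library 1, was not tested. Scaling to the cardiomyocyte markers moved the median log2 fold change of all genes to -0.08 and that of the members to 0.11. Of the members 7 were positive and 2 negative as before, and 0 were called. Over all genes the calls then split into 102 higher and 192 lower, against 138 and 155 with TMM. On this scale 2 members, Fhl1 and Ankrd23, did not overlap between groups, where 15.9% of all genes did not.

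**Figure D3:**
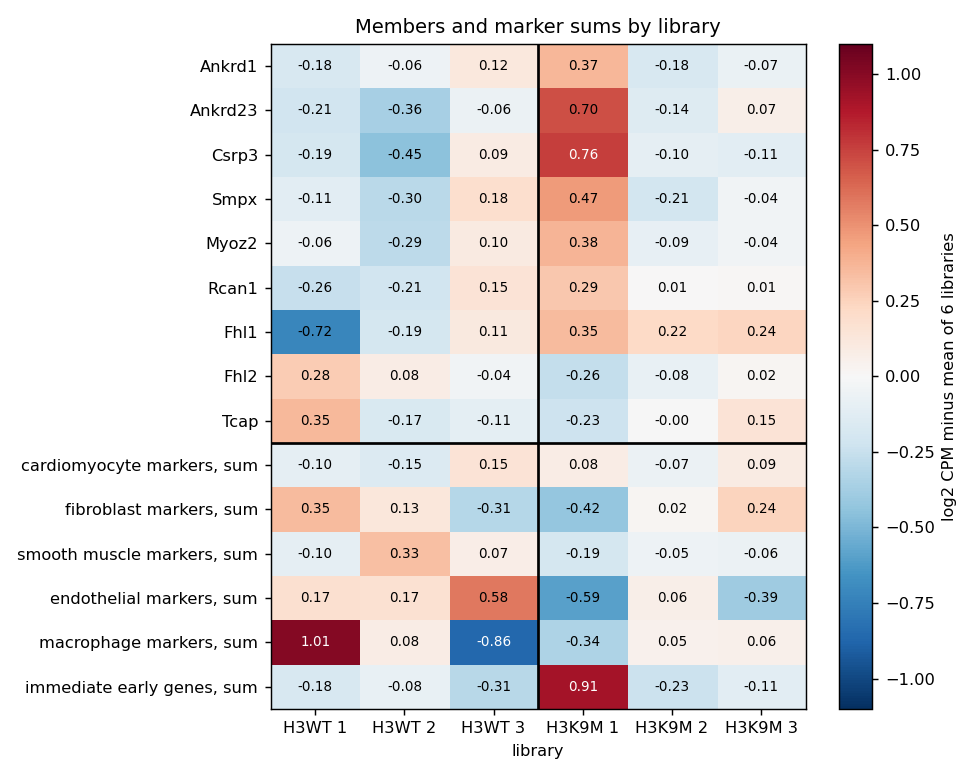
Log2 CPM of each gene, and of the sums of marker lists below the line, minus its mean over the 6 libraries (columns), with red above and blue below that mean. H3K9M library 1 is red for 7 genes and blue for Fhl2 and Tcap, and it is the library with the highest immediate early sum (2027 CPM) and the lowest fibroblast sum (10928 CPM).

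Levels were compared between genes per kilobase of exon, using the union of exons in GENCODE M21. In H3WT the order was Ankrd1 at 639.7 ± 66.3, Fhl2 at 532 ± 60.4, Fhl1 at 99.9 ± 27.7, Tcap at 84.7 ± 17.4, Smpx at 53.9 ± 9.20, Csrp3 between 28.8 and 41.8 in its 3 libraries, Myoz2 at 30.7 ± 4.05, Rcan1 at 13.3 ± 2.14 and Ankrd23 at 11.3 ± 1.17 CPM per kb (SD, n = 3). The H3K9M order was the same except that Ankrd23, at 15.5 ± 4.99, stood above Rcan1, at 15.3 ± 1.80 CPM per kb. The place of Ankrd23 is uncertain, since 78.2% of the exon bases it was divided by are shared with Gm42417 and its level per kb would be higher if reads from them were not counted. Ankrd1 and Fhl2 overlapped in H3WT, where the lowest Ankrd1 value was 580 and the highest Fhl2 value 598 CPM per kb, and they did not overlap in H3K9M. Fhl1 and Tcap likewise overlapped in H3WT (71.1 to 126 and 73.2 to 105 CPM per kb) but not in H3K9M (136 to 149 and 70.1 to 91.1). The neighbours Csrp3 and Myoz2, and Rcan1 and Ankrd23, overlapped in both groups. Tcap and Smpx, and Smpx and Csrp3, overlapped in H3K9M and not in H3WT, while Fhl2 and Fhl1, and Myoz2 and Rcan1, did not overlap in either.

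**Figure D4:**
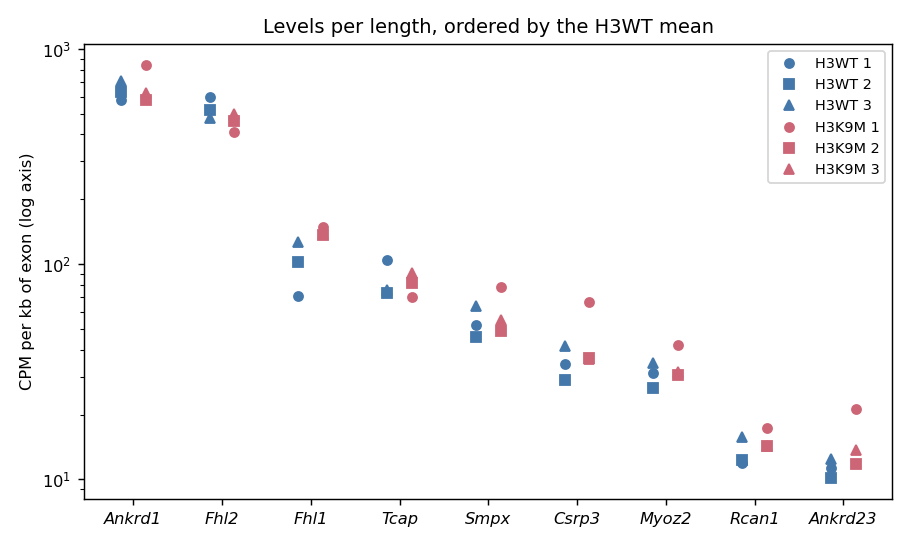
CPM per kb of exon (y axis, log scale) for each gene, in order of the H3WT mean, with blue symbols for the 3 H3WT libraries and red for the 3 H3K9M libraries. Ankrd1 and Fhl2 lie at the top, with no value under 409.7 CPM per kb, Rcan1 and Ankrd23 at the bottom, and the red circle of H3K9M library 1 stands above the other red points for 7 genes.

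Promoters of genes that were highest in the same libraries, and of Fhl2, which ran the other way, are shown with their motif matches. They are the genes with a single start in the table (Ankrd1, Smpx and Myoz2), the NFAT-driven start of Rcan1 and both starts of Fhl2, a choice made with their matches known. RefSeq promoter windows (GRCm38.p6) were found for 8 of the 9 genes, all but Tcap. Each window is the 250 bases before an annotated start, in the direction of the gene. Capitals mark motif matches on either strand, except that the TATA box was searched only in the direction of the gene. The TEAD motif, CATTCC, is the element bound by the partners of YAP. The NFAT core was searched as GGAAA. The core of GATA factors was searched as GATAA. The CArG box of serum response factor, the MEF2 site and the TATA box were searched as well, and TATAAA stood for the last. Matches may overlap one another.
Ankrd1, chr19:36119845-36120094, minus strand: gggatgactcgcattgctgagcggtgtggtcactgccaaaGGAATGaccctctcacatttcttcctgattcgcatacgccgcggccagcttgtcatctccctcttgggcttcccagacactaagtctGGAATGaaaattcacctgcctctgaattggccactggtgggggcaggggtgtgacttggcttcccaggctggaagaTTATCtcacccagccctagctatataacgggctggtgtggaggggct
Smpx, chrX:157698723-157698972, plus strand: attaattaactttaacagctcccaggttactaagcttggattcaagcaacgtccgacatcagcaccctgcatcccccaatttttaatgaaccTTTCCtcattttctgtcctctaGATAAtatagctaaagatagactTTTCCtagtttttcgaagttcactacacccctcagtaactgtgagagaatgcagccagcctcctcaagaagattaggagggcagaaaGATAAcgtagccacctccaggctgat
Myoz2, chr3:123034988-123035237, minus strand: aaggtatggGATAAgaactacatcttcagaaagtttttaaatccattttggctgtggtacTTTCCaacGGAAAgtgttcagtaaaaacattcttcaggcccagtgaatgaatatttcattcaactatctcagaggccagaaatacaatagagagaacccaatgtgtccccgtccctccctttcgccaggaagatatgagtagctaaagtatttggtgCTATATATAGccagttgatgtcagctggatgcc
Rcan1 internal start, chr16:92400079-92400328, minus strand: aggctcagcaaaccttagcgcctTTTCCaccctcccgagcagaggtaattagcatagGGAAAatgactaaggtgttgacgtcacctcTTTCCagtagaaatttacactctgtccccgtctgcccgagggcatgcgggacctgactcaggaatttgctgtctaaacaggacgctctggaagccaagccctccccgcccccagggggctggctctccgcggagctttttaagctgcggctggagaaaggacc
Fhl2 downstream start, chr1:43163962-43164211, minus strand: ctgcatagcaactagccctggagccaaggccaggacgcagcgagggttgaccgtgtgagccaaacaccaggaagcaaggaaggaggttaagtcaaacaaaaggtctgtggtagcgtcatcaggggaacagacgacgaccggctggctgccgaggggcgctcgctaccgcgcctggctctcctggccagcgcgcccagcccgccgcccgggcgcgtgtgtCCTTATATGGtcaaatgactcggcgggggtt
Fhl2 upstream start, chr1:43196762-43197011, minus strand: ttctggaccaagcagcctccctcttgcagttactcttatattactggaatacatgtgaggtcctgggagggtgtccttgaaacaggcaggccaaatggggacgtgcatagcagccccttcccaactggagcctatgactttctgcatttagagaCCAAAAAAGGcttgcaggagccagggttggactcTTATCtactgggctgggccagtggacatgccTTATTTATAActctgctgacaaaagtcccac

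The Ankrd1 window held 2 matches to CATTCC, at 210 and 123 bases before the start, a motif present in 12.6% of all 32851 windows of this length. Of the other members 1 of the 2 windows of Ankrd23 held 1 match, and no window of Csrp3, Fhl1, Fhl2, Smpx, Myoz2 or Rcan1 held any. The internal start of Rcan1 held 3 matches to GGAAA, at 227, 193 and 163 bases before the start, and its upstream start held 0. Smpx, Myoz2 and both windows of Ankrd23 held 2 each, 1 of the 2 windows of Csrp3 and of Fhl1 held 1, and Ankrd1 and Fhl2 held 0, while 55.6% of all windows held at least 1. Each Fhl2 window held 1 CArG box, found in 1.47% of all windows, and a CArG box was also present at 1 of the 2 starts of Fhl1. MEF2 sites were found for Myoz2, 33 bases before the start, and for the upstream Fhl2 start, 31 bases before it, against 2.92% of all windows. GATAA was present in the windows of Ankrd1, Smpx, Myoz2 and upstream Fhl2 and in 1 of 2 of Ankrd23, and in 22.6% of all windows. TATAAA was in no window of a member, against 7.59% of all windows. These matches describe the letters of the windows and are not sites measured here, and none of them had a match in at least 1 window of each of the 7 genes that were highest in the same libraries.

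Among paralogs of the 9 genes, 8 of 11 tested had positive fold changes, with a median of 0.16, and 0 called in edgeR in either direction (3 at an unadjusted p under 0.05). DESeq2 called 3 of them, Crip2, Lmcd1 and Myoz1, and limma-voom 0. Lmcd1, a LIM protein that promotes calcineurin signalling in heart, was at 82.9, 75.8 and 39.9 CPM in H3WT and 21.9, 33.0 and 32.4 CPM in H3K9M. Its groups did not overlap, and its log2 fold change of -1.19 ± 0.27 did not meet the threshold (edgeR adjusted p = 0.0682). DESeq2 (adjusted p = 0.0225) and scaling to cardiomyocyte markers (0.0250) placed it past the threshold, as did leaving out H3WT replicate 3 (0.00741). Crip2, a LIM protein of the heart, had 774 to 840 CPM in H3K9M and 627 to 697 CPM in H3WT, a difference of 0.30 ± 0.08 on the log2 scale (adjusted p = 0.114 in edgeR). Myoz1, the calsarcin of fast skeletal fibres, was near the floor of expression at 1.42 to 2.14 CPM in H3WT and 2.44 to 4.07 CPM in H3K9M (0.97 ± 0.30, edgeR adjusted p = 0.161). Csrp1 (0.23 ± 0.11), Fhl3 (0.27 ± 0.16) and Rcan2 (-0.0016 ± 0.10) had adjusted p-values from 0.354 to 0.997 in edgeR. Ankrd2 and Fhl5 were not among the genes counted.

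Among 25 tested genes listed as partners at the Z-disc and I-band, 1 was called higher and 0 lower, with 17 positive and a median of 0.10. The titin kinase, where Sqstm1 (the autophagy adaptor p62) docks with Nbr1, is a part of titin outside its Z-disc and I-band parts. Sqstm1 was called, at 359, 409 and 421 CPM in H3WT and 518, 528 and 563 CPM in H3K9M. Its groups did not overlap, and it rose by 0.44 ± 0.09 on the log2 scale (adjusted p = 0.0450 in edgeR). That call was lost without any 1 library other than H3WT replicate 3, with edgeR adjusted p-values from 0.0918 to 0.159, and under scaling to cardiomyocyte markers (0.232). The chaperone gene Cryab (0.29 ± 0.08, adjusted p = 0.117) and the intermediate filament gene Des (0.50 ± 0.18, adjusted p = 0.216) had positive values that did not pass in edgeR, and both passed in DESeq2 (0.0161 and 0.0433). Pdlim3, a PDZ and LIM protein that binds alpha-actinin, had a negative value, at 59.1, 47.9 and 33.2 CPM in H3WT and 32.8, 38.0 and 33.0 CPM in H3K9M (-0.43 ± 0.19, unadjusted p = 0.0463 and adjusted p = 0.296 in edgeR). It was -0.63 and passed without H3WT replicate 3 (adjusted p = 0.0418) and was -0.23 without H3WT replicate 1.

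Of 18 tested genes of calcineurin and NFAT signalling, 0 were called by edgeR, DESeq2 or limma-voom and 0 had an unadjusted p under 0.05 in edgeR, with 10 positive, 8 negative and a median of 0.01. Values lay between -0.57 ± 0.26 for Nfatc4 and 0.22 ± 0.10 for Nfatc1, and the catalytic subunit gene Ppp3ca was at -0.12 ± 0.08. Of 23 YAP and TEAD targets, a group to which Ankrd1 is often added, 0 were called by edgeR (6 at an unadjusted p under 0.05) or limma-voom, with 11 positive, 12 negative and a median of -0.03. Axl (0.48 ± 0.15) and Crim1 (0.34 ± 0.09) had positive values and Igfbp3 (-1.28 ± 0.33) a negative one, with edgeR adjusted p-values of 0.145, 0.0940 and 0.0948. DESeq2 called these 3 and Nuak2, a kinase gene named here as the remaining call. Of 18 genes of the load and fetal programme, edgeR and limma-voom each called 1 higher and 0 lower, DESeq2 called 3 higher (Myl7, Nppb and Timp1) and 0 lower, and 15 were positive, with a median of 0.30. The gene that edgeR called was the atrial myosin light chain Myl7 (1.41 ± 0.22, edgeR adjusted p = 0.0221), which no longer passed when H3WT library 2 (0.109), H3K9M library 1 (0.0650) or H3K9M library 2 (0.0939) was left out. Nppa, atrial natriuretic peptide, stood at 345, 286 and 480.5 CPM in H3WT and 1811, 989 and 405 CPM in H3K9M, again highest in H3K9M library 1. Its fold change (1.53 ± 0.45, edgeR adjusted p = 0.139) and that of Nppb, the related peptide of ventricular load (1.70 ± 0.35, 0.0518), did not pass, and both passed under scaling to cardiomyocyte markers (0.0457 and 0.00573) and without H3K9M replicate 3 (0.0379 and 0.0474). Nppb also passed in DESeq2 (0.0164) and without H3WT replicate 3 (0.0444). Timp1, an inhibitor of matrix metalloproteinases, was at 111, 147 and 149 CPM in H3WT and 212, 182 and 184 CPM in H3K9M, without overlap (0.51 ± 0.12, adjusted p = 0.0811 in edgeR and 0.00337 in DESeq2).

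**Figure D5:**
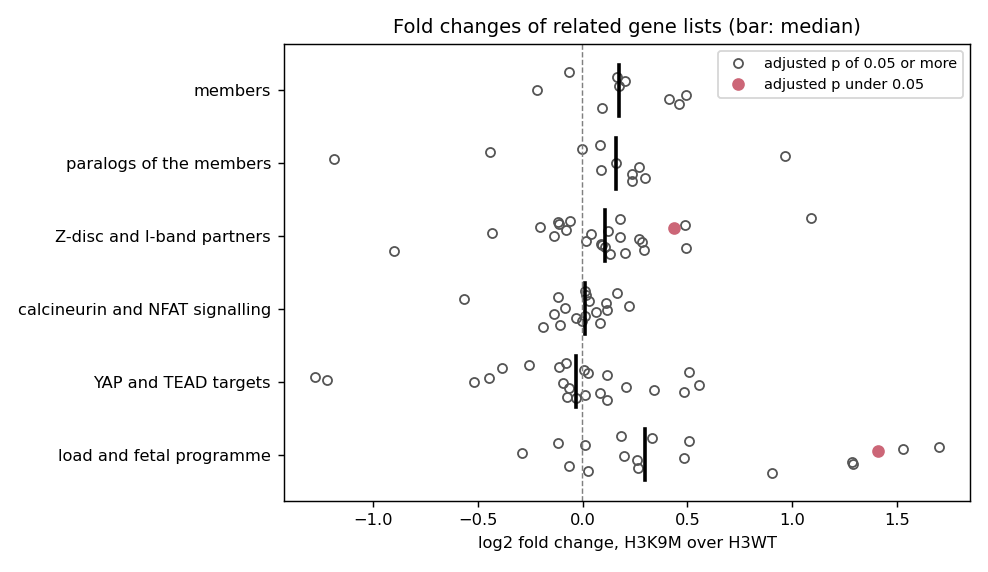
Log2 fold change of each tested gene (x axis) in the members and 5 related lists (rows), with a black bar at the median, a filled point for an edgeR adjusted p under 0.05 and a dashed line at the median of all genes. Among these lists 2 points are filled, Sqstm1 and Myl7, and the members' bar is at 0.17.

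In the authors' deposited table of their own DESeq2 comparison, 0 of the 9 genes passed an adjusted p of 0.05, a threshold met by 4.1% of the genes with an adjusted p there. All 9 had the same sign as here. The mean raw counts here were a median of 3.97 times the mean normalised counts there (5th to 95th percentile 2.92 to 4.53). Whether both comparisons rest on the same counts is therefore not known. Fhl1 came closest, with a log2 fold change of 0.48 in the authors' deposited table and an adjusted p of 0.0652. Myoz2 (0.29, unadjusted p = 0.0364) and Ankrd23 (0.46, unadjusted p = 0.0265) were the other members under an unadjusted p of 0.05 in the authors' deposited table.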

How the data were processed

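RNA of 6 libraries, 3 of each group, was compared. Per the submitters' processing notes the tools were HISAT2, featureCounts and DESeq2 with the mouse build mm10. No source used here states tool versions or strandedness. Raw counts per gene were deposited by the authors, as was the table of their own comparison, which gives a mean normalised signal, log2 fold changes with standard errors, and p-values. Its Wald score, deposited by the authors, was not used.

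After filterByExpr (minimum count 10, total 15) and TMM scaling, the quasi-likelihood test of edgeR 4.0.16 (R 4.3.3) was fitted to group alone, and p-values of 14758 genes were adjusted by Benjamini-Hochberg (threshold 0.05). Alternatives were DESeq2 1.42.0, limma-voom (limma 3.58.1), RLE factors, scaling to 10 cardiomyocyte markers, other filters, a replicate block and left-out libraries. On simulated counts of 14758 genes for this comparison, the recovery by edgeR was 83% for 2-fold and 97% for 4-fold changes (100 genes each), and 16 of its 196 calls were false. DESeq2 recovered 90% and 100%, and 40 of its 230 calls were false. For limma-voom the recovery was 79% and 96%, with 14 of 189 calls false. Changes smaller than 2-fold were not simulated.

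The members, gene lists and tests were chosen with earlier results of these data known. Named genes are all members and, of each other list, called genes and up to 3 more with the smallest p. The tested paralogs are allowed too. For the cardiomyocyte, skeletal, smooth muscle, macrophage and immediate early lists only calls and counts are given, and Nuak2 was named after its value was seen. Symbols Ccn1 and Ccn2 were matched to Cyr61 and Ctgf through RefSeq synonyms. Replicates differed beyond sampling noise (chi-square per gene from 27.2 to 121).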

Additional observations from a re-analysis of the deposited data

How the results depend on the processing

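In edgeR no alternative called a member higher or lower, and DESeq2 called 1 higher. The number of genes called over the whole table was 293 and became 1010 with DESeq2, and from 60 (without H3WT replicate 2) to 372 (without H3WT replicate 3) when a library was left out. It was 193 without H3WT replicate 1, and 98, 96 and 104 without H3K9M replicates 1, 2 and 3. With 2 libraries in a group, the fit pools their spread with that of the other group. It was 0 without both libraries whose titles lack the word Soft, a setting chosen after seeing the data that leaves 2 against 2. Same-numbered libraries did not deviate together (correlations across genes of -0.16, 0.03 and -0.07), and no label says that a number marks a shared animal or batch, although titles share M1 in replicate 1 and M5 in replicate 3. They were therefore not taken as pairs. With the replicate block 58 genes were called and still 0 members, and Sqstm1 (adjusted p = 0.112), Myl7 (0.116), Ddr2 (0.103) and Smtn (0.124) no longer passed in edgeR.

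Over 15 alternatives Fhl1 stayed between 0.30 and 0.70, Ankrd23 between 0.17 and 0.62, Csrp3 between 0.06 and 0.56, Rcan1 between 0.10 and 0.34, Myoz2 between 0.01 and 0.27 and Fhl2 between -0.30 and -0.13 on the log2 scale. Signs turned for Ankrd1 (range over left-out libraries -0.093 to 0.19, the former without H3K9M replicate 1, and -0.0074 without both H3WT library 3 and H3K9M library 1, a setting added after seeing the data), Smpx (-0.061 without H3K9M replicate 1, up to 0.31 without H3WT replicate 3) and Tcap (0.12 without H3WT replicate 1 and 0.03 without H3K9M replicate 1). The number of members without overlap was 2 when scaled to cardiomyocyte markers. The causes were not tested. Each group has 3 libraries, and the effect of depth was not tested.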

Other observations

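Likeness between genes was measured by the Pearson correlation of log2 CPM over the 6 libraries among genes with at least 20 CPM. The 3 genes nearest to Smpx were Dennd5a, Flnc and Mon2 (r = 0.991, 0.990 and 0.989), of which Flnc encodes the filamin of striated muscle Z-discs. For Rcan1 the 3 nearest were Immt, Cluh and Enah (r = 0.997, 0.996 and 0.995), of which the first encodes a mitochondrial inner membrane organiser, the next a protein of mitochondrial mRNA handling and the last an actin regulator. For Ankrd1 they were Zfp609, Psmd5 and Mtmr10, for Fhl1 they were Pus1, Nutf2 and Tpd52, and for Fhl2 they were Rin2, Rnf34 and Slc44a2 (r from 0.990 to 0.998). All genes share the group, depth and normalisation of each library, and with 6 libraries such values are a description only.

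The mean raw count of a gene over the 6 libraries was a median of 3.97 times the mean normalised count in the authors' deposited table, and 3.90 to 4.22 times for the 9 members.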
